A study of Mus musculus with 6 samples.

Results

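Heat shock proteins and folding chaperones were examined as 34 genes, chosen by name: 4 chaperones of the mitochondrion, 9 of the endoplasmic reticulum (ER) and 21 of the cytosol, the last including the transcription factor Hsf1. Each gene was read from probe sets that carry its symbol alone, and from the brightest of these by mean signal over the 6 arrays. A measurement was found for 32 of the 34 genes. Hsp90ab1 and Hsf1 have no probe set of 1 symbol and were not analysed here. The 32 are part of 18193 genes with such a probe set, and all 32 are among the 10838 genes that passed the filter on dim signals, so no member was lost to the filter.

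The study used naive CD8+ T cells from spleens of C57/BL6 mice, either wild type (Nrdp1+/+) or Nrdp1-/-. The gene Rnf41 encodes Nrdp1, which attaches ubiquitin to target proteins. Cells of each genotype were left untreated or were stimulated for 4 h or for 8 h with immobilized anti-CD3 (5 µg/ml) together with soluble anti-CD28 (1 µg/ml), antibodies that engage the T cell receptor and its costimulator. One RNA per genotype and time was put on an Affymetrix mouse 430 2.0 array, which gives 6 arrays, 2 per time and 3 per genotype. Neither the number of mice behind an RNA nor the make of the Nrdp1 allele is given in the labels. They also conflict on 2 points: the extraction protocol names colon, and the treatment entry of the stimulated samples names anti-CD28 alone.

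Chaperones bind unfolded or partly folded proteins and help them to reach or keep their native shape. HSP70 proteins hold short exposed stretches of a client with the help of J-domain partners, HSP90 acts later on clients such as kinases and receptors, and the ring-shaped chaperonins HSP60 (in mitochondria) and CCT (in the cytosol) fold proteins inside a chamber. In the ER, calnexin and calreticulin hold glycoproteins while protein disulfide isomerases set their disulfide bonds. Heat shock factors induce the cytosolic and some mitochondrial chaperone genes through the heat shock element, and the unfolded protein response induces ER chaperone genes through the ER stress element. A T cell that is leaving quiescence enlarges and raises its protein synthesis, which adds to the load of newly made chains.

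Promoter motifs are shown first, because the members' changes are set beside them further on. RefSeq promoter windows (build GRCm38.p6, 250 bases before and 50 after each annotated start site, 300 bases) were matched by symbol for 28 of the 34 genes. No window was searched for Hsp90aa1, Hspa8, Hspa9, Cct4, Hsp90ab1 and Hsf1. The motif shares and medians of the members leave these genes out, and whether their promoters hold a motif was not tested. The mitochondrial genes Hspd1 and Hspe1, which encode the barrel (HSP60) and the lid (HSP10) of the mitochondrial chaperonin, are neighbours that face away from each other. The 215 bases between the Hspe1 start site and an Hspd1 start site, chr1:55087933-55088147, are shown on the plus strand. They run from the Hspd1 side to the Hspe1 side, with the joined heat shock elements in capitals. A further annotated Hspd1 start lies beyond the Hspe1 start, and its window (chr1:55088194-55088493) holds no heat shock element.

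Hspd1-Hspe1 interval: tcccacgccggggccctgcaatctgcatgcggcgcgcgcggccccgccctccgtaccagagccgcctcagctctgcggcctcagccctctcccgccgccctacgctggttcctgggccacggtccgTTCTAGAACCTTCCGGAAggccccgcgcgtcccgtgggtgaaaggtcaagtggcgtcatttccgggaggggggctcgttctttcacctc

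The heat shock element was searched on both strands as GAANNTTCNNGAA or TTCNNGAANNTTC. In the Hspd1-Hspe1 interval 1 match of each form overlap, at chr1:55088059-55088071 and chr1:55088064-55088076, so both genes carry the same letters. The motif was also present at chr5:149636288-149636300 in Hsph1 and at chr5:29735852-29735864 in Dnajb6. These single sites are shown in the orientation of each gene, with the GAA and TTC blocks in capitals.

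Hsph1 site: TTCtgGAAagTTC
Dnajb6 site: GAAtcTTCcgGAA

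The Hsph1 site lies 15 or 36 bases after the start, depending on which annotated start is used, and the Dnajb6 site lies 46 or 127 bases before it. In all, 4 of 28 members (14.3%) held a heat shock element, against 0.662% of the 27025 genes with a window and 0.554% of the 8846 tested genes with one.

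The ER stress element was searched on both strands as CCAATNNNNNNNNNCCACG. It was found in 6 of the 9 ER members and in none of the other 19 members with a window. Of all genes with a window 0.137% held it, and of the tested ones 0.147%. For Hspa5, which encodes BiP, the HSP70 of the ER, the 250 bases before the start site (chr2:34771840-34772089, plus strand) are shown with the element in capitals.

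Hspa5 promoter: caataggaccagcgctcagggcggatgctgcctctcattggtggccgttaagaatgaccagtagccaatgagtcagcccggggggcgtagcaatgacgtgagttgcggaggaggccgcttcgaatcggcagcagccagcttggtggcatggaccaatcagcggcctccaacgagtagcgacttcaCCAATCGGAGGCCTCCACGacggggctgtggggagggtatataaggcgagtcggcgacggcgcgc

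The 7 sites of the 6 ER members are shown next, in the orientation of each gene and with the CCAAT and CCACG blocks, or their reverse complements ATTGG and CGTGG, in capitals. The blocks are shared because the search required them, while the 9 bases between them were free and differ from gene to gene.

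Hspa5 site: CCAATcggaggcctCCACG
Hsp90b1 site, upstream: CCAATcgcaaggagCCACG
Hsp90b1 site, downstream: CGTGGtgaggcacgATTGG
Canx site: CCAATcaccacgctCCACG
Pdia6 site: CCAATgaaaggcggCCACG
Dnajc3 site: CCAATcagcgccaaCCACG
Calr site: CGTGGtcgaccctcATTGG

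The Hspa5 site starts 65 bases before the start site, and the others start between 98 and 212 bases before theirs. Hsp90b1, which encodes the ER HSP90 GRP94, was the member with 2 sites. The remaining ER members, Dnajb11, Pdia3 and Pdia4, had no match in their windows. The E-box CACGTG, a binding motif of Myc and its relatives, was present in 3 of 28 members (10.7%; Hspd1, Calr and Hsph1), against 8.09% of all genes with a window and 11.9% of the tested ones. It was therefore about as frequent in the members as in other genes. In Hspd1 the E-box lay in the window of the further start, which holds no heat shock element. A match describes these letters and does not show that a factor binds there.

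The trimmed mean is 500 on every array, so a similar overall signal was set by the scaling. Median signals ran from 61.5 (Nrdp1-/- at 4 h) to 68.6 (Nrdp1-/- at 8 h). The stimulation markers Cd69, Il2ra and Myc rose by 2.73, 3.78 and 2.14 at 4 h on the log2 scale. Rnf41, the targeted gene, had signals of 728, 505 and 639 in wild type cells (untreated, 4 h and 8 h) and 528, 437 and 477 in Nrdp1-/- cells, lower at each time but not past the threshold (log2 difference -0.36 ± 0.12 SE, limma adjusted p = 0.128). Whether its probe set lies in the deleted part was not given. The 7 general T cell markers summed to between 68197 and 82110 on every array. Of 4 CD4 T cell markers, Cd4, Cd40lg and Foxp3 were below the array median on every array. The other, Zbtb7b, read 9.53, 61.5 and 102 in wild type and 91.7, 63.9 and 107 in Nrdp1-/- cells. Of 10 colon epithelium markers, 6 (Krt19, Krt20, Vil1, Muc2, Cdx2 and Slc26a3) were below the median on every array, and the list summed to 485 to 782. Cdh1 and Krt8 exceeded the median on the untreated Nrdp1-/- array alone. Epcam read 529, 406 and 341 in wild type and 241, 185 and 173 in Nrdp1-/- cells, called lower (-1.06, limma adjusted p = 0.00141). Car1 read 36.4, 34.7 and 33.9 in wild type and 164, 135 and 286 in Nrdp1-/- cells, called higher (2.27, adjusted p = 0.00304). Smooth muscle markers (6 genes) summed to 137 to 264, with 3 below the median throughout, and the 3 erythroid markers were below it on every array.

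Stimulation was followed by a rise of more than one group of chaperones. At 4 h, 17 of the 32 measured members were higher than in untreated cells and 0 were lower, at an adjusted p under 0.05 in limma. All 21 members with an unadjusted p under 0.05 were higher, and 27.6% of all genes had such a p in either direction. Of all 10838 genes, 8.01% were higher and 5.51% lower. At 8 h, 20 members were higher and 1 was lower, where 9.88% of all genes were higher and 9.26% lower. The median log2 change of the members was 0.39 at 4 h and 0.45 at 8 h, beside -0.05 and -0.07 over all genes. All 17 members that rose at 4 h had also risen at 8 h, and 3 more passed at 8 h (Cct5, Dnaja2 and Hspa8). Both comparisons use the same untreated arrays and so are not independent. In 21 members both untreated arrays lay below all 4 stimulated arrays, a pattern found in 16.7% of all genes.

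These calls borrow their error from all genes, because each genotype and time has 1 array and only 2 residual degrees of freedom are left. With a prior variance that did not follow signal intensity, limma called 0 members higher at 4 h and 1 (Hspd1) at 8 h, where it called 0.766% and 0.95% of all genes higher, though 17 and 21 members had an unadjusted p under 0.05. The count at 4 h was 7 without the wild type untreated array, 7 without the Nrdp1-/- untreated array and 9 without the wild type 4 h array, beside 6.24%, 5.3% and 6.44% of all genes. Averaging the probe sets of each gene gave 10 at 4 h and 13 at 8 h, beside 5.43% and 6.72% of all genes. Under every alternative except the fit without the trend, 5 members stayed called higher at 4 h (Hspd1, Hspa9, Hspa5, Cct3 and Hsph1) and 9 at 8 h (the same 5 with Hspa8, Tcp1, Stip1 and Ahsa1). In RNA from whole preparations, more RNA per cell and more cells that carry the transcript cannot be told apart, and scaling every array to one mean hides a rise in total RNA.

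**Figure D1:**
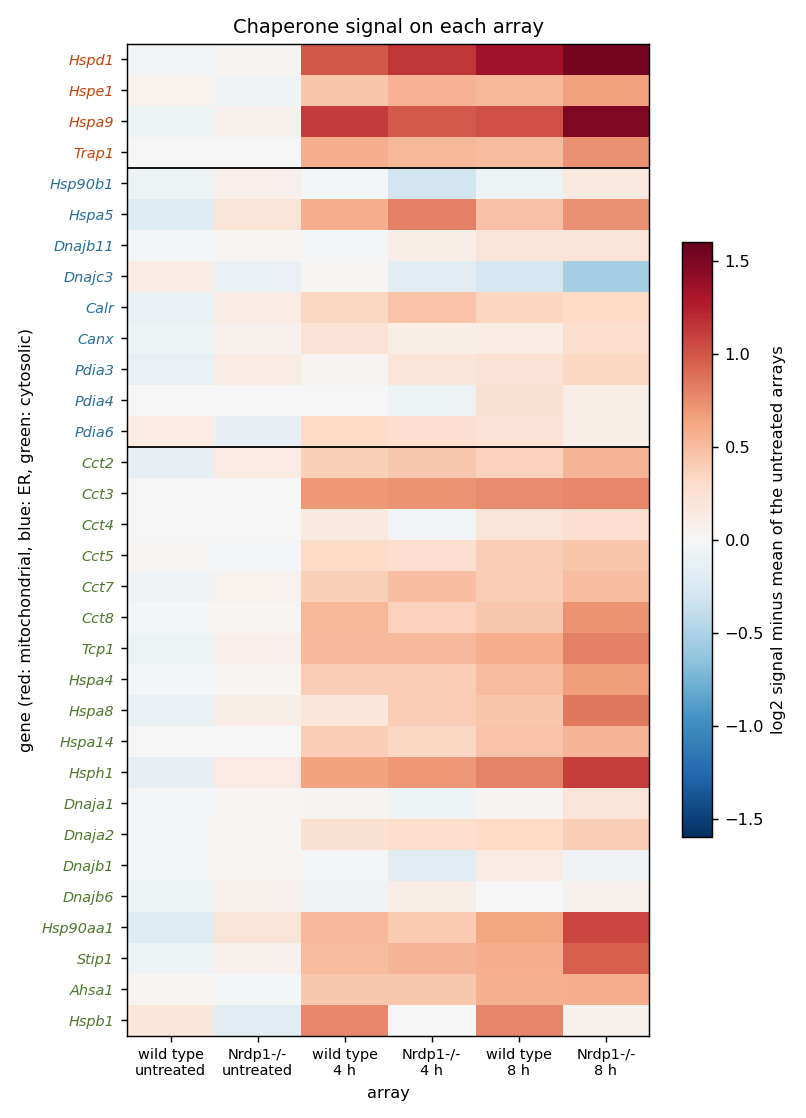
Heat map of the 32 measured members (vertical axis, grouped by compartment) on the 6 arrays (horizontal axis), as log2 signal minus the mean of both untreated arrays of the same gene. Hspd1 and Hspa9 are darkest on the stimulated arrays, Dnajc3 is the gene most clearly blue at 8 h, and the Nrdp1-/- array at 8 h holds the highest signal for Hspd1, Hspa9, Hsph1 and Hsp90aa1.

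All 4 mitochondrial chaperones rose at both times. By the brightest probe sets, Hspd1 and Hspa9 had the largest changes of the 32 members at each time. Hspd1, the HSP60 chaperonin, had signals of 3276, 6740 and 8543 in wild type cells (untreated, 4 h and 8 h) and of 3481, 7500 and 9789 in Nrdp1-/- cells. The genotypes followed one course, with every stimulated array above both untreated arrays and both 8 h arrays above both 4 h arrays. The log2 change was 1.07 ± 0.10 (SE) at 4 h, a 2.10-fold increase (limma adjusted p = 3.14e-05), and 1.44 ± 0.10 at 8 h, a 2.71-fold increase (adjusted p = 2.84e-06). Hspa9 encodes mortalin, the mitochondrial HSP70 that pulls imported chains through the inner membrane. Its signals were 2100, 4754 and 4482 in wild type and 2293, 4330 and 6212 in Nrdp1-/- cells. Wild type cells were thus no higher at 8 h than at 4 h, while the Nrdp1-/- array at 8 h was the highest of the 6. The increase was 2.07-fold at 4 h (log2 1.05 ± 0.13, adjusted p = 0.000437) and 2.40-fold at 8 h (1.26 ± 0.13, adjusted p = 0.000103).

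Hspe1, the HSP10 lid, had signals of 6343, 8310 and 8847 in wild type and 5869, 8956 and 9631 in Nrdp1-/- cells. Both untreated arrays lay below all stimulated arrays, as in 16.7% of all genes, while the 4 h and 8 h arrays overlapped. Its increase was smaller than that of its neighbour Hspd1: log2 0.50 ± 0.10 at 4 h (limma adjusted p = 0.00756) and 0.60 ± 0.10 at 8 h (adjusted p = 0.00227). Probe sets differ in their response, so the sizes of the Hspd1 and Hspe1 changes were not tested against each other. Trap1, the mitochondrial HSP90, had signals of 1033, 1539 and 1454 in wild type and 1020, 1480 and 1710 in Nrdp1-/- cells. It rose by 0.55 ± 0.12 at 4 h (adjusted p = 0.0118) and by 0.62 ± 0.12 at 8 h (adjusted p = 0.00536) on the log2 scale. Other probe sets of Hspa9, Hspe1 and Trap1 past the filter were also positive at 8 h, from 1.05 for Hspa9 down to 0.21 for Trap1.

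The ER chaperones changed less, and 6 of the 9 did not pass the threshold at either time. At 4 h 2 of them rose, at 8 h the same 2 rose and 1 fell. Hspa5 (BiP) had signals of 6100, 10566 and 9751 in wild type and 8128, 12315 and 11718 in Nrdp1-/- cells. Both untreated arrays were lower than all stimulated arrays, and in both genotypes the 4 h array was the highest. The log2 change was 0.70 ± 0.10 at 4 h (limma adjusted p = 0.00078, 1.62-fold) and 0.60 ± 0.10 at 8 h (adjusted p = 0.00174, 1.52-fold). The peak at 4 h was not common to its 3 probe sets past the filter. A dimmer one was higher at 8 h than at 4 h in both genotypes, and another in Nrdp1-/- cells alone. The 3 gave 0.20 to 0.70 at 4 h and 0.59 to 0.69 at 8 h. Calr, which encodes the glycoprotein chaperone calreticulin, had signals of 5796, 7928 and 8010 in wild type and 6872, 8668 and 7860 in Nrdp1-/- cells. It rose by 0.39 ± 0.10 at 4 h (adjusted p = 0.0264) and by 0.33 ± 0.10 at 8 h (adjusted p = 0.0428), a call at the edge of the threshold.

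Dnajc3 was the member that fell. It encodes p58IPK, a J-domain protein that also inhibits kinases of the translation factor eIF2-alpha. Its signals were 3572, 3307 and 2715 in wild type and 3005, 2917 and 2262 in Nrdp1-/- cells, so in each genotype the 8 h array was the lowest. The change was -0.08 ± 0.10 at 4 h (limma adjusted p = 0.685) and -0.40 ± 0.10 at 8 h (adjusted p = 0.0179). The fall at 8 h was not called without the wild type untreated, the Nrdp1-/- untreated or the Nrdp1-/- 8 h array, and 1 of its 5 probe sets past the filter moved the other way, to 0.19.

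The other 6 ER members did not pass the threshold. Hsp90b1 (GRP94) had signals of 4943, 5145 and 4944 in wild type and 5519, 4248 and 5753 in Nrdp1-/- cells, with the lowest and the highest value both in Nrdp1-/- cells. Its log2 change was -0.16 ± 0.12 at 4 h (limma adjusted p = 0.453) and 0.03 ± 0.12 at 8 h (adjusted p = 0.898). Without the wild type 4 h array it was called lower at 4 h, and it was the one member called lower at that time in any setting. Canx (calnexin, the membrane-bound relative of calreticulin) changed by 0.17 and 0.20 at 4 h and 8 h, and Dnajb11, the J-domain partner of BiP known as ERdj3, by 0.04 and 0.22. The disulfide isomerases were similar: Pdia3, the partner of calnexin and calreticulin, changed by 0.12 and 0.28 (adjusted p = 0.0662 at 8 h), Pdia4 by -0.03 and 0.17, and Pdia6 by 0.28 and 0.16.

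In the cytosol, 11 of 19 measured members rose at 4 h and 14 at 8 h, and none fell. The CCT chaperonin, an 8-subunit ring that folds actin and tubulin, was read through 7 subunits. Of these, 5 rose at 4 h (Cct2, Cct3, Cct7, Cct8 and Tcp1) and 6 at 8 h, when Cct5 was added. Cct3 had signals of 5371, 8656 and 9043 in wild type and 5334, 8843 and 9137 in Nrdp1-/- cells, with almost equal levels in both genotypes. It rose by 0.71 ± 0.09 at 4 h (limma adjusted p = 0.000513) and by 0.76 ± 0.09 at 8 h (adjusted p = 0.000278). Tcp1, the alpha subunit, had signals of 5873, 8930 and 9341 in wild type and 6609, 8957 and 10896 in Nrdp1-/- cells, and rose by 0.52 ± 0.10 and 0.70 ± 0.10 (adjusted p = 0.00527 and 0.000795). The changes of Cct2, Cct7 and Cct8 lay between 0.41 and 0.45 at 4 h and between 0.44 and 0.57 at 8 h.

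Cct5 had a log2 change of 0.29 ± 0.09 at 4 h (limma adjusted p = 0.0594) and 0.42 ± 0.09 at 8 h (adjusted p = 0.0101). Cct4 was the exception among the 7. Its signals were 10328, 11434 and 12025 in wild type and 10371, 10073 and 12489 in Nrdp1-/- cells, so that the Nrdp1-/- array at 4 h lay below both untreated arrays. Its change was 0.05 ± 0.10 at 4 h and 0.24 ± 0.10 at 8 h (adjusted p = 0.792 and 0.111), and its 6 probe sets past the filter ranged from -0.41 to 0.22 at 4 h. The difference between Cct4 and the other subunits was not tested. The brightest probe sets of Cct2, Cct3, Cct4 and Hspa8 are of a kind (suffix x) that the maker flags for possible binding of other transcripts, and those of Hspe1, Canx and Dnaja2 (suffix s) may read several transcripts.

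The 4 measured HSP70 and HSP110 proteins of the cytosol all rose at 8 h, 3 of them also at 4 h. Hsph1, the HSP110 that acts as a nucleotide exchange factor for HSP70, had signals of 1272, 2194 and 2423 in wild type and 1536, 2272 and 3011 in Nrdp1-/- cells. It had the largest change of the cytosolic members at 8 h, 0.95 ± 0.11 or 1.93-fold (limma adjusted p = 0.000232), after 0.67 ± 0.11 at 4 h (adjusted p = 0.00268). Hspa8 encodes HSC70, the constitutive HSP70. Its signals were 15722, 18927 and 22980 in wild type and 18139, 22184 and 30189 in Nrdp1-/- cells, each time higher than the one before in both genotypes. The change of 0.28 ± 0.10 at 4 h did not pass (adjusted p = 0.0779), and that of 0.64 ± 0.10 at 8 h did (adjusted p = 0.00109). Its 4 probe sets past the filter gave 0.44 to 0.98 at 8 h. Hspa4, another HSP110 protein, rose by 0.40 and 0.59, and Hspa14, a ribosome-associated HSP70, by 0.37 and 0.50 (adjusted p = 0.046 and 0.00913).

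Of the 4 measured J-domain partners of the cytosolic HSP70s, 0 were called at 4 h in limma, where 1 had an unadjusted p under 0.05, and 1 at 8 h. This was Dnaja2 (0.35 ± 0.09, adjusted p = 0.0217). Dnaja2 had signals of 8817, 10624 and 11061 in wild type and 9052, 10815 and 11753 in Nrdp1-/- cells, without overlap between untreated and stimulated arrays. Dnajb1, the HSP40 that is strongly induced by heat, had signals of 2889, 2893 and 3173 in wild type and 2958, 2608 and 2809 in Nrdp1-/- cells. These overlapped between all times, and the change was -0.09 ± 0.11 at 4 h and 0.03 ± 0.11 at 8 h (adjusted p = 0.646 and 0.877). Dnaja1 changed by -0.01 and 0.13, and Dnajb6, which keeps polyglutamine proteins from aggregating, by 0.02 and 0.03. The difference between the HSP70s and these partners was not tested.

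The 3 measured genes of the HSP90 group, Hsp90aa1, Stip1 and Ahsa1, rose at both times. Hsp90aa1, the inducible cytosolic HSP90, had signals of 6015, 9950 and 10786 in wild type and 7993, 9263 and 14575 in Nrdp1-/- cells. The untreated arrays differed by genotype, the 4 h arrays were close, and the Nrdp1-/- array at 8 h stood above all others. The log2 change was 0.47 ± 0.13 at 4 h (limma adjusted p = 0.0355) and 0.85 ± 0.13 at 8 h (adjusted p = 0.00124, 1.81-fold). Stip1, or HOP, which bridges HSP70 and HSP90, had signals of 514, 770 and 812 in wild type and 566, 790 and 1052 in Nrdp1-/- cells and rose by 0.53 and 0.77 (adjusted p = 0.0271 and 0.00307). Ahsa1, the activator of the HSP90 ATPase, had signals of 2743, 3613 and 3996 in wild type and 2629, 3609 and 4019 in Nrdp1-/- cells and rose by 0.43 and 0.58 (adjusted p = 0.0157 and 0.00249). The small heat shock protein Hspb1 was dim, at 92.3, 141 and 142 in wild type and 70.7, 81.0 and 85.3 in Nrdp1-/- cells, and its changes of 0.39 ± 0.36 and 0.43 ± 0.36 did not pass (adjusted p = 0.536 and 0.448).

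**Figure D2:**
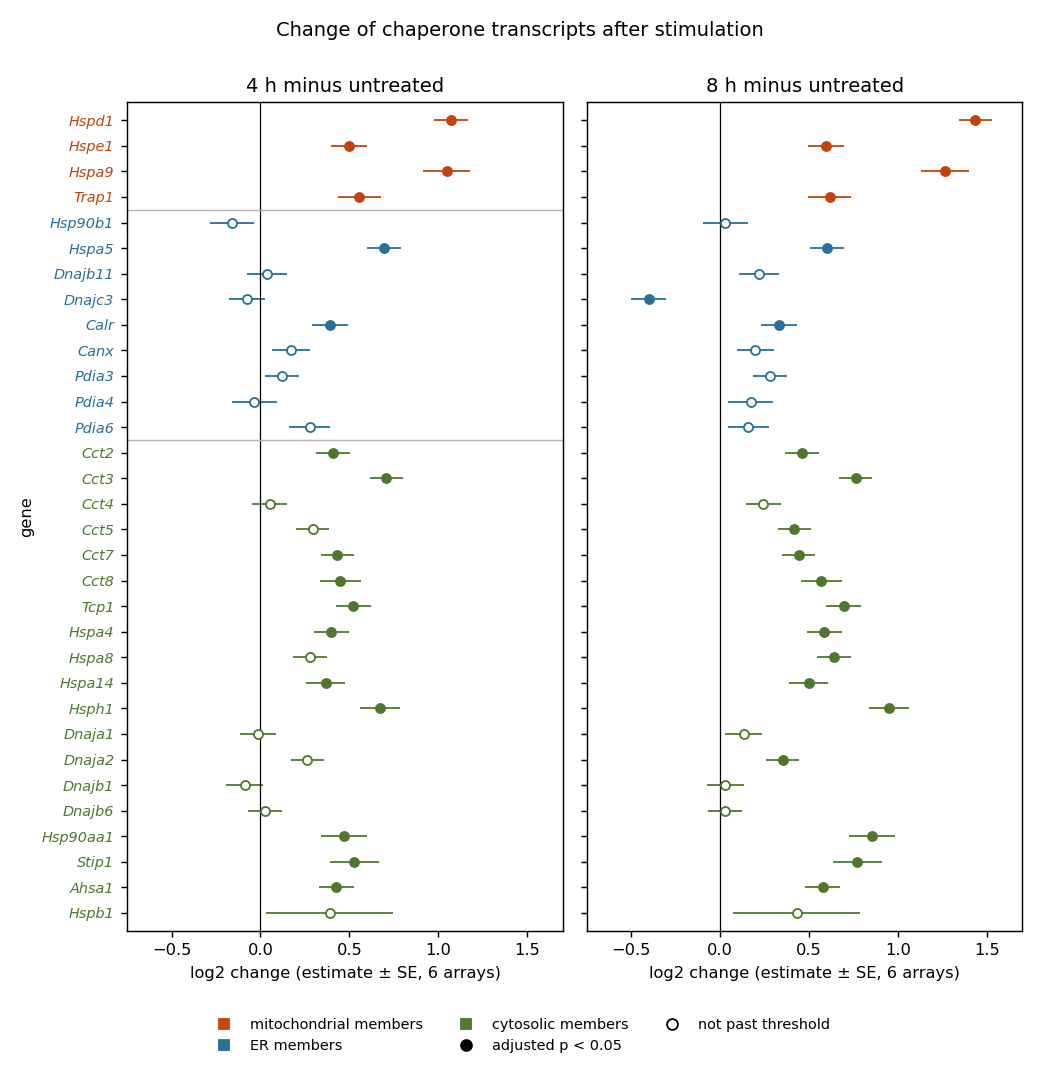
Log2 change of each measured member (vertical axis) at 4 h (left) and 8 h (right) against untreated cells, as the limma estimate with its SE over 6 arrays. Filled points passed an adjusted p of 0.05: all 4 mitochondrial, 2 ER and 11 cytosolic members at 4 h, and 4, 3 and 14 at 8 h, with Dnajc3 the filled point left of 0.

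Set side by side by their brightest probe sets, the compartments differed in both count and size. Over all genes, 8.01% were called higher at 4 h and 9.88% at 8 h. The median log2 change at 4 h was 0.80 over 4 mitochondrial, 0.12 over 9 ER and 0.40 over 19 cytosolic members. At 8 h the medians were 0.94, 0.20 and 0.50, and the ranges ran from 0.60 to 1.44, from -0.40 to 0.60 and from 0.03 to 0.95. The lowest mitochondrial value at 8 h, that of Hspe1, was thus about equal to the highest ER value, that of Hspa5. With each array centred on its median, the median over all genes at 8 h was -0.11 and that of the ER and cytosolic members 0.16 and 0.46. The order depends on the probe set read. At 8 h the probe sets past the filter ran from 0.95 to 1.30 for Hsph1, 0.85 to 1.20 for Hsp90aa1 and 0.70 to 1.21 for Cct3. Those of Hspa4, also cytosolic, ran from 0.16 to 0.59. For the mitochondrial Hspa9 and Trap1 they ran from 1.05 to 1.26 and from 0.21 to 0.62. Members of a compartment are not replicates, and no test was made between compartments.

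**Figure D3:**
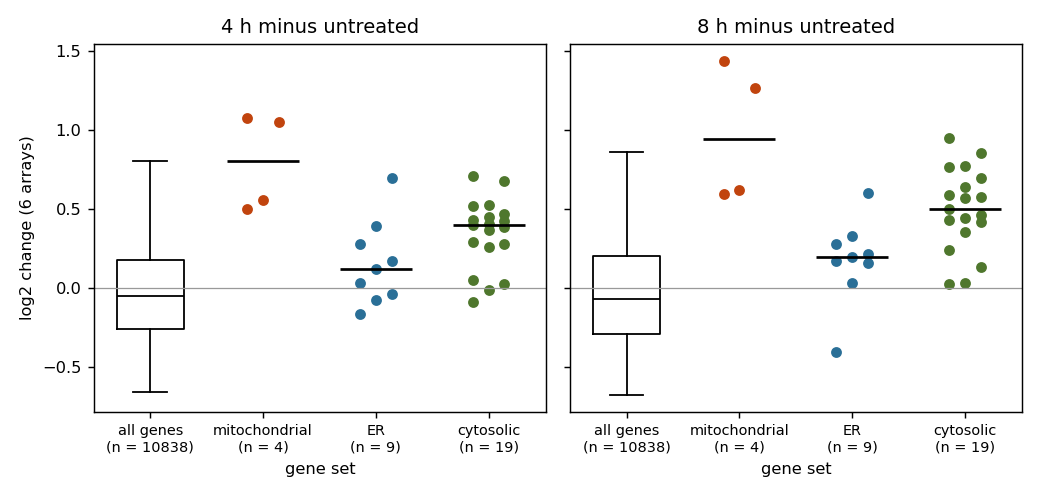
Log2 change at 4 h (left) and 8 h (right) over 6 arrays for all 10838 genes tested (box: quartiles and median, whiskers: 5th and 95th percentile) and for each member, by compartment, with a bar at the median. At 8 h the medians are 0.94 for mitochondrial, 0.20 for ER and 0.50 for cytosolic members, and -0.07 for all genes.

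The promoter motifs and the changes after stimulation were then read together. Of the 6 ER members whose window holds an ER stress element, 2 rose at 8 h (Hspa5 and Calr), 1 fell (Dnajc3) and 3 did not pass (Canx, Pdia6 and Hsp90b1, the member with 2 sites). Their median log2 change at 8 h was 0.18. The only negative estimate at 8 h was that of Dnajc3, whose call was lost when certain single arrays were left out. Whether the element goes with the change was not tested. Of the 4 members with a heat shock element, Hspd1, Hspe1 and Hsph1 rose at both times, while Dnajb6 changed by 0.03 at 8 h. The median of these 4 at 8 h was 0.77. Among the 18 members with a window and neither motif, 12 rose at 8 h, with a median of 0.45. All 3 members with an E-box rose at 8 h, in a motif as common as in other genes.

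**Figure D4:**
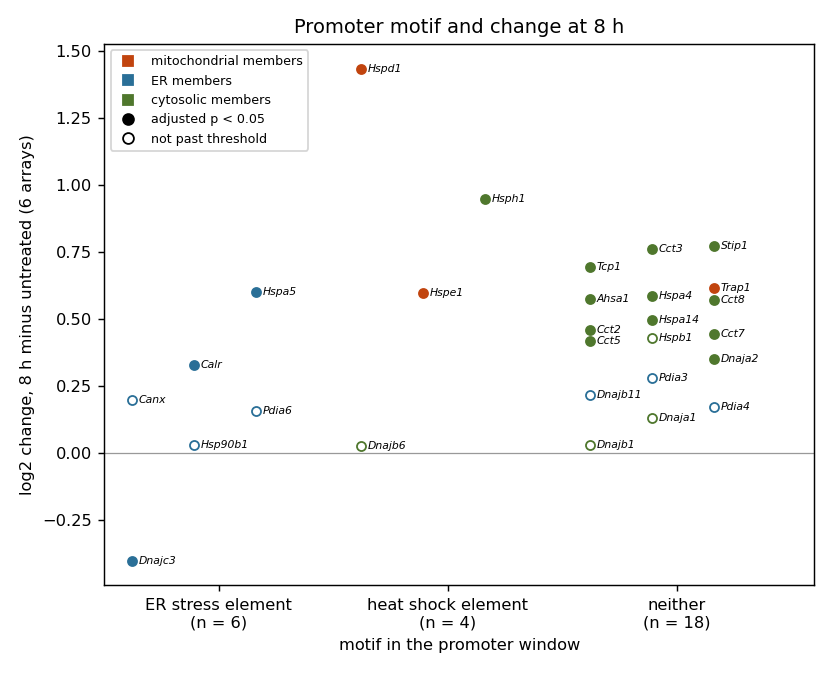
Log2 change at 8 h (vertical axis, 6 arrays) of the 28 members with a promoter window, by the motif found there (horizontal axis), with filled points for an adjusted p under 0.05. Members with an ER stress element run from -0.40 (Dnajc3) to 0.60 (Hspa5), and those with a heat shock element from 0.03 (Dnajb6) to 1.44 (Hspd1).

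Partner genes of each compartment, taken from lists that do not contain the members, gave the wider setting. Over all genes, 8.01% were called higher and 5.51% lower at 4 h, and 9.88% and 9.26% at 8 h. The list counts were not tested against these shares. Of 19 other genes of mitochondrial folding and protein quality, 6 rose at both times and none fell, with a list median of 0.15 at 4 h and 0.22 at 8 h. They include Tomm40, the import channel of the outer membrane (0.90 and 1.20), Timm50, an import receptor of the inner membrane (0.68 and 0.83), and the matrix protease Lonp1 (0.52 and 0.80). Of 29 other genes of ER folding, disulfide formation and degradation, 1 rose at each time, Hyou1, the HSP110 of the ER (0.55 and 0.75), and 1 fell at 8 h, Edem1, which marks misfolded glycoproteins for disposal (-0.38). The median of these 29 genes was -0.02 at 4 h and -0.03 at 8 h. The share of them called higher lay below that over all genes. Of 15 regulators of the unfolded protein response, 2 rose and 1 fell at 4 h, and 2 rose and 3 fell at 8 h (medians 0.03 and 0.00). Atf4, the transcription factor of the integrated stress response, rose by 0.61 and 0.74. The ER stress sensors Eif2ak3 (PERK; -0.61 and -0.38) and Ern1 (IRE1-alpha; -0.86 at 8 h) fell. Atf6b, of the same list, went the other way and was called higher at 8 h (0.46 and 0.50).

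Among cytosolic partners, 5 of 15 HSP90 cochaperones and related factors rose at both times, namely Fkbp4, Cacybp, Nudc, Ruvbl1 and Ruvbl2, and the list medians were 0.15 and 0.26. Ruvbl1 and Ruvbl2, ATPases of a complex that works with HSP90, rose by 0.65 and 0.63 at 4 h and by 1.05 and 0.94 at 8 h. Of 16 genes of the CCT, prefoldin and tubulin cofactor list, 4 rose at 4 h and 5 at 8 h, with medians of -0.01 and 0.05. Cct6a, a further CCT subunit, rose by 0.41 and 0.80, and the prefoldin subunit Pfdn4, which hands nascent chains to CCT, by 0.47 and 0.68. Of 28 other HSP70, HSP40 and small heat shock genes, 3 rose and 1 fell (Dnajb14) at 4 h, and 4 rose at 8 h (medians -0.02 and -0.07). These counts are not far from the shares over all genes, of which 8.01% were higher at 4 h and 9.88% at 8 h. The nucleotide exchange factor Hspbp1 (0.62 and 0.73) and the HSP70-interacting protein St13 (0.41 and 0.45) were among those that rose. The 2 tested genes of the heat shock factor list, Hsf2 and the factor-binding Hsbp1, were not called in limma at 4 h or 8 h, nor did either have an unadjusted p under 0.05 (medians -0.10 and 0.22).

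Between 4 h and 8 h the members moved on little. No member was called in limma, where 0.0185% of all genes were higher and 0.0277% lower, and 5 members (15.6%) had an unadjusted p under 0.05, beside 8.37% of all genes. The estimates were positive for 28 of 32, with a median of 0.13, beside 48.3% and -0.0072 over all genes. Hsp90aa1 (0.39 ± 0.13), Hspd1 (0.36 ± 0.10), Hspa8 (0.36 ± 0.10) and Hsph1 (0.27 ± 0.11) were the 4 with a positive estimate and an unadjusted p under 0.05, and Dnajc3 (-0.33 ± 0.10) was the one with a negative estimate. The adjusted p of these 5 lay between 0.254 and 0.54. Without the wild type 4 h array, Hsp90aa1 was called higher at 8 h than at 4 h.

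Loss of Nrdp1 gave no called difference in any member. Over the 3 times, 0 members were called in limma, where 2.47% of all genes were higher and 2.57% lower in Nrdp1-/- cells. An unadjusted p under 0.05 was reached by 5 members (15.6%), a share close to the 16.5% of all genes. Of these, Hspa5, Hspa8, Hsph1 and Hsp90aa1 were higher and Dnajc3 was lower in Nrdp1-/- cells. Hspa5 came nearest: its log2 signal was higher in Nrdp1-/- cells by 0.41, 0.22 and 0.27 (untreated, 4 h and 8 h), with an estimate of 0.30 ± 0.08 (adjusted p = 0.0557). Its other probe sets past the filter gave 0.24 and -0.11. Quantile normalization called Hspa5, and so did the fits without either 4 h array, which also called Hsp90aa1. The estimate for Hspa8 was 0.28 ± 0.08 (adjusted p = 0.0757), with a positive difference at each time. For the brightest Hsp90aa1 probe set, the 4 h arrays went the other way: the differences were 0.41, -0.10 and 0.43. A dimmer Hsp90aa1 probe set was higher in Nrdp1-/- cells at all 3 times, with 4 h signals of 3617 in wild type and 4242 in Nrdp1-/- cells. In another past the filter, the 4 h signals were close, at 3049 and 2993.

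In 12 members the Nrdp1-/- array lay above the wild type array at all 3 times, and in 4 (Dnajc3, Hspb1, Pdia4 and Pdia6) below it at all 3. Of all genes, 17.4% lay above at all 3 times and 20.2% below. Hspb1 had the largest difference, -0.62 ± 0.29 (limma adjusted p = 0.331), at its low signal. Among the partner lists, Ern1 (0.91, adjusted p = 0.0035), Xbp1 (0.46, adjusted p = 0.0133), the BiP-associated Sdf2l1 (0.51, adjusted p = 0.0263) and the HSP90 partner Fkbp5 (0.38, adjusted p = 0.0417) were higher in Nrdp1-/- cells. Erp29, a lumenal folding factor, was lower (-0.41, adjusted p = 0.0206).

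Markers of other cells moved with genotype, and some also with stimulation. The 12 B cell markers summed to 14205 to 16413 in wild type and 3000 to 3293 in Nrdp1-/- preparations. The 9 markers of antibody-secreting cells, a cell type rich in ER chaperones, summed to 12598 to 14509 in wild type and 21780 to 27210 in Nrdp1-/- preparations, with Tnfrsf17 below the array median throughout. Of its 8 tested genes, Jchain, Igha and Xbp1 were called higher in Nrdp1-/- cells and Mzb1 was called lower (-1.88, limma adjusted p = 9.15e-06). The 13 myeloid markers summed to 2100 to 2354 in wild type, and to 13272, 8465 and 3177 in Nrdp1-/- preparations (untreated, 4 h and 8 h). The 10 memory-like CD8 T cell markers summed to 25230 to 27626 in wild type and to 35974 to 39582 in Nrdp1-/- cells. At 8 h against untreated cells, 6 of 12 tested myeloid markers were called lower (list median -1.07), as were Jchain (-0.58), Sdc1 (-1.17) and Mzb1 (-0.56) of the antibody-secreting list, where Irf4 was called higher. The part of these cells in the genotype values of Hspa5 and other members, and in the changes of the ER members after stimulation, was not tested.

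The number of members with a higher signal in Nrdp1-/- cells differed by time. The Nrdp1-/- array was above the wild type array in 23 members before stimulation, in 15 at 4 h and in 26 at 8 h, where the share over all genes was 47.4%, 51.3% and 46.0%. The largest differences at 8 h were those of Hspa9 (0.47), Hsp90aa1 (0.43), Hspa8 (0.39) and Stip1 (0.37). From 4 h to 8 h the brightest Hsp90aa1 probe set moved by 0.65 in Nrdp1-/- and 0.12 in wild type cells. That contrast was not common to the Hsp90aa1 probe sets past the filter. A dimmer one went from 4242 to 5698 in Nrdp1-/- and from 3617 to 4765 in wild type cells. Another went from 2993 to 4014 and from 3049 to 3676. The brightest Hspa9 probe set moved by 0.52 in Nrdp1-/- and -0.08 in wild type cells. After quantile normalization the counts were 23, 13 and 24. With each array centred on its median they were 23, 23 and 21, but that centring also moved the share over all genes to 66.2% at 4 h and 37.2% at 8 h, and their median difference to 0.12 and -0.10. Relative to all genes, the members' share at 8 h was the higher one under each of these scalings, and at 4 h it was not under the deposited scaling or quantile normalization.

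**Figure D5:**
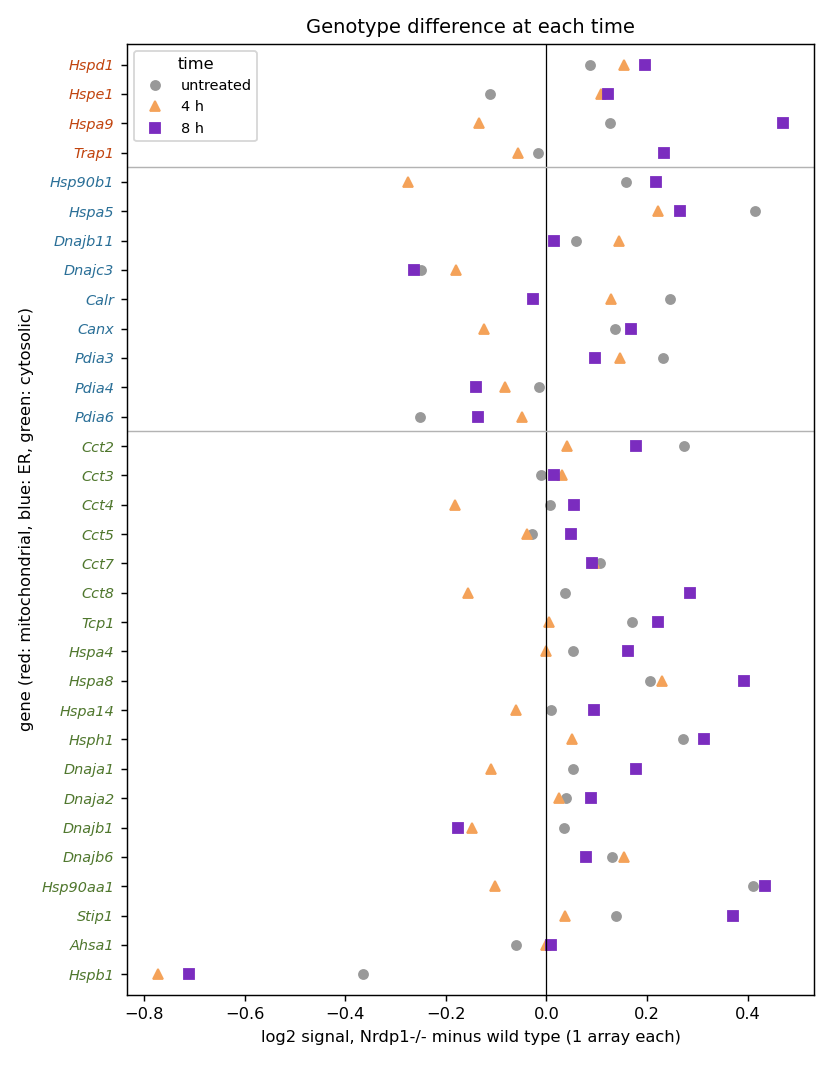
Log2 signal of Nrdp1-/- minus wild type cells (horizontal axis, 1 array each) for each member (vertical axis), with a symbol for each of the 3 times. At 8 h the squares of 26 members lie right of 0, and Hspb1 lies farthest left at all 3 times.

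A genotype difference that depends on stimulation was tested by an interaction term. Its fit left 1 residual degree of freedom. The SE of the term was 0.23 for Hspd1, beside 0.10 for its time estimates, so small differences of this kind could be missed. No member was called in limma, against 0.221% of all genes, and 0 members had an unadjusted p under 0.05. A term for the Nrdp1-/- array at 8 h, added after the values were seen, called 0 members, against 0.175% of all genes, and 1 member (Hspa9, 0.47) had an unadjusted p under 0.05. Within each genotype, from 1 array against 1 array, 29 of the 32 members had a positive change at 4 h and 31 at 8 h in wild type cells, where 44.0% and 44.3% of all genes did. In Nrdp1-/- cells 26 members had a positive change at 4 h and 30 at 8 h, beside 46.1% and 43.1% of all genes.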

How the data were processed

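Total RNA was measured on 6 Affymetrix arrays, 1 per genotype and time. The authors deposited 1 signal intensity per probe set and array, made with MAS5 per the submitters' processing notes. Its trimmed mean is 500 on every array, found from the values. The build and version used are not given in the sources used here. Arrays give no read depth, and their number limits the precision.

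Of 45101 probe sets, 34945 carry 1 gene symbol, 932 several and 9160 are not listed in the platform table; 64 array controls were left out. The brightest probe set stood for each gene. Genes at or above the array median on at least 2 arrays were kept (10838 of 18193). A pseudocount of 4.45 (the 10th percentile over all arrays) was added before log2, and the values were fitted with limma 3.58.1 (R 4.3.3) on time and genotype, with an intensity trend and Benjamini-Hochberg adjustment over all genes tested at a threshold of 0.05. Fold changes are on this scale. The labels do not say that arrays came from separate animals, so p-values measure the spread between arrays, with both genotypes standing as the replicates of a time. In the genotype comparison the 3 times stand as the replicates of a genotype. A lasting difference between the cell preparations of the genotypes therefore cannot be told apart from an effect of genotype. The fit was tested on simulated data. Named genes are all members, up to 3 risen and 3 fallen called genes per partner list and comparison, the targeted gene and 3 stimulation markers; the other genes named were singled out after their values were seen. Members and lists were chosen with earlier results of these data known. Promoter windows are from RefSeq (GRCm38.p6).

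Alternatives were quantile normalization, centring on the array median, other pseudocounts (1 and 24.3), other filters, probe sets averaged per gene, no intensity trend and each array left out.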

Additional observations from a re-analysis of the deposited data

Results flagged for a closer look

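Dnajb1, the heat-inducible HSP40, was flagged because its small changes differed in sign between the genotypes. Its log2 change at 8 h was 0.14 in wild type and -0.075 in Nrdp1-/- cells, and at 4 h it was 0.00 and -0.18, each from 1 array against 1 array. The SE of its time estimates was 0.11. Its other probe set read 1889, 1770 and 1949 in wild type and 1811, 1814 and 1608 in Nrdp1-/- cells. There wild type was lower at 4 h and Nrdp1-/- was flat. The interaction of genotype and stimulation was not called (limma adjusted p = 1).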

How the results depend on the processing

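The 4 h count of members called higher (17) was 10 with probe sets averaged per gene and 0 without the intensity trend. The 8 h count (20) was 13 and 1, and the 8 h count called lower (1) was 0 under both. With single arrays left out, the counts called higher ranged from 7 to 19 at 4 h and from 14 to 21 at 8 h, and those called lower from 0 to 1 at both times. Between 8 h and 4 h, 0 to 1 members were called higher, and between genotypes 0 to 2 were higher. Quantile normalization called 1 member higher in Nrdp1-/- cells. Centring on the array median moved the 8 h medians to 0.16 (ER) and 0.46 (cytosolic), and the mean of probe sets moved the cytosolic median to 0.47 at 8 h and to -0.0062 between genotypes. The cause of these moves was not tested. No called member changed sign under any alternative, and of 1543 values of uncalled members 106 had the opposite sign. The interaction could not be fitted with an array left out. No paired analysis was possible because the labels give no replicate numbers.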
